A study of Mus musculus with 6 samples.

Results

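Genes for the protein subunits of oxidative phosphorylation that are encoded in the nucleus were examined in the prostate after castration, in a mouse cancer model that carries the PB-Cre4 transgene. Members were taken by gene symbol: the Nduf genes other than the Ndufaf assembly factors, the Uqcr, Atp5, Cox4i, Cox5, Cox6, Cox7 and Cox8 genes, Sdha, Sdhb, Sdhc, Sdhd, Cyc1 and Cycs. There were 87 such genes among the 24421 in the table. The castrated group had 4 samples and the intact group had 2, all labelled as prostate and all of this genotype, so castrated and intact animals alike carry the Cre transgene and the floxed alleles that it deletes. In this model Cre is driven by a probasin promoter, which acts in prostate epithelium and not in stromal cells. The labels give no age, no time since castration and do not state whether each sample is a different animal; the p-values therefore reflect the variation among these samples alone, part of which could be technical.

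Oxidative phosphorylation couples the oxidation of NADH and succinate to ATP synthesis in the inner mitochondrial membrane. Complex I oxidises NADH and complex II oxidises succinate; both pass electrons through coenzyme Q to complex III, from which cytochrome c carries them to complex IV, where oxygen is reduced. The proton gradient built by complexes I, III and IV drives ATP synthase, also called complex V. The prostate is known for secreting citrate that in most tissues would be oxidised to feed this chain, and androgens are known to regulate metabolism in its secretory epithelium. The subunits encoded in mitochondrial DNA were not analysed here.

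By complex, 36 members belonged to complex I, 4 to complex II, 9 to complex III, 1 was cytochrome c, 20 belonged to complex IV, among them Ndufa4, which carries a complex I name but is a subunit of complex IV, and its relative Ndufa4l2, and 15 belonged to ATP synthase. The other 2, Atp5s and Atp5sl, are named after ATP synthase; Atp5sl is now called Dmac2, a factor in complex I assembly. Gene-assigned reads numbered between 43679297 and 59170793 per sample. Values are given as rescaled CPM, reads per 1000000 reads assigned to genes after division by size factors between 0.978 and 1.047. Of the 87 members, 82 had at least 1 CPM in at least 2 samples and were tested together with all other such genes, 13898 in all.

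Castrated sample 4 stood apart from the other castrated samples in nearly all members. The members' share of all reads was 1.42%, 1.36%, 1.33% and 1.055% in castrated samples 1 to 4, against 1.24% and 1.203% in the intact samples. The mean was 1.29% ± 0.162 (SD, n = 4) in castrated samples and 1.22% ± 0.0248 (SD, n = 2) in intact samples, so the group means differed by less than the spread among castrated samples. Castrated sample 4 was below each of the other castrated samples in 80 of 82 tested members, against 38.6% of all tested genes, and was the lowest of all 6 samples in 76, against 26.5%. The exceptions were Cox6b2 and Ndufa4l2. Castrated sample 1 was the highest of the 6 in 63 members, against 23.7% of all tested genes. In bulk tissue, fewer cells rich in these transcripts and less of these transcripts per cell cannot be told apart.

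**Figure D1:**
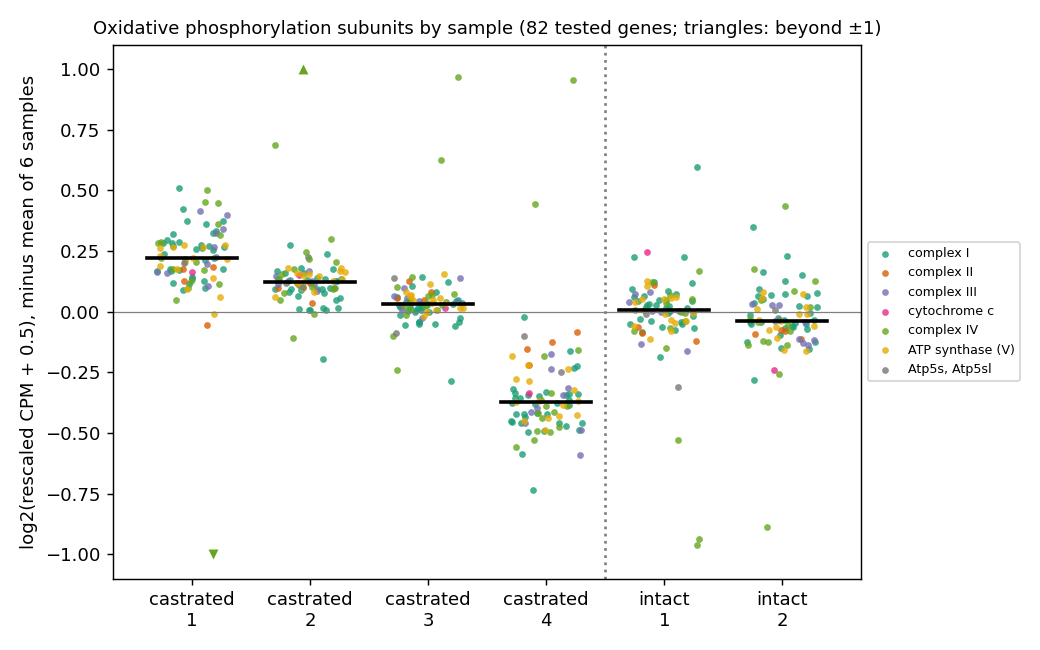
Each point is 1 of 82 tested subunit genes, coloured by complex; the vertical axis is its log2(rescaled CPM + 0.5) minus its mean over the 6 samples, and the black lines are medians; triangles stand for values beyond the plotted range of 1 on either side. Medians were 0.22, 0.12, 0.03 and -0.37 in castrated samples 1 to 4, and 0.00 and -0.04 in the intact samples.

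The displacement of castrated sample 4 extended across the chain. Against the mean of castrated samples 1 to 3, its log2 value lay a median of 0.50 lower over the members (a difference of -0.50), while the median of all tested genes was -0.01. The median was -0.51 in complex I, -0.23 in complex II, -0.55 in complex III, -0.45 for cytochrome c, -0.56 in complex IV and -0.51 in ATP synthase. Uqcrfs1, the Rieske iron-sulphur protein that passes electrons within complex III, had 165, 159, 162 and 110 rescaled CPM in castrated samples 1 to 4, against 152 and 143 in the intact samples. The 3 other castrated samples lay above both intact samples, and castrated sample 4 lay below them. Ndufs1, a core subunit that holds several of the iron-sulphur clusters of complex I and has one of the longer transcripts among the members, moved least among those that were lower, by -0.10. Ndufa1, a small accessory subunit of complex I, was displaced by -0.88.

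Transcript length moved with this displacement. The tested members have a median transcript length of 752 bases, and 52 of 82 have at most 1000 bases, against a median of 2834 bases over the 13002 tested genes with an annotated transcript, of which 899 have at most 1000. Members with transcripts of up to 700 bases (36 genes) lay a median log2 value of -0.57 from the other castrated samples in castrated sample 4, and the medians were -0.50 from 700 to 1000 bases (16 genes), -0.46 from 1000 to 1500 (13 genes), -0.38 from 1500 to 2000 (10 genes), -0.25 from 2000 to 3000 (5 genes) and -0.40 above that (2 genes). Among genes that are not members, the medians in the first 5 of these classes were -0.37, -0.34, -0.22, -0.15 and -0.05. Castrated sample 4 lay above the other castrated samples by 0.08 in non-members from 3000 to 5000 bases and by 0.27 in longer ones. The members' medians lay below those of other genes of like length in each class, a difference that was not itself tested. Cytosolic ribosomal protein genes, which are also short, had a median of -0.39 in castrated sample 4 (76 tested genes), and mitochondrial ribosomal protein genes had one of -0.36 (77 tested genes). The part of transcript length in the members' values was not tested.

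**Figure D2:**
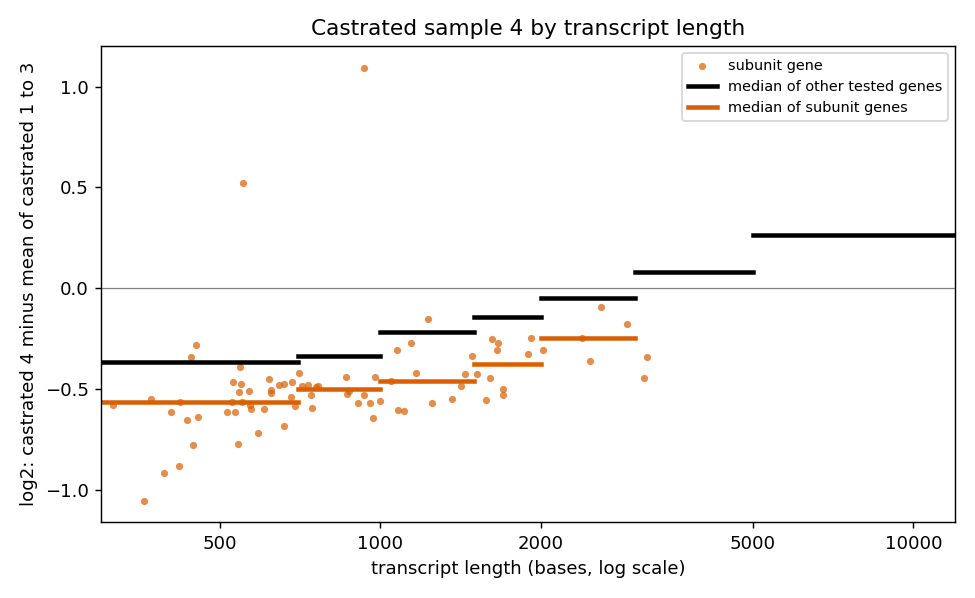
The horizontal axis is transcript length in bases on a log scale, and the vertical axis is the log2 difference between castrated sample 4 and the mean of castrated samples 1 to 3. Orange points are subunit genes, orange lines their medians in length classes with 5 or more members and black lines the medians of other tested genes; the orange lines lie below the black ones.

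The RNA levels of subunits of different complexes were compared per kilobase of transcript, as the mean over the 6 samples. ATP synthase subunits had the highest median at 275 rescaled CPM per kilobase, followed by complex III at 227, complex IV at 217, complex I at 96.0 and complex II at 91.7. The extremes among the core subunits belonged to ATP synthase and complex I. Atp5b, the catalytic beta subunit of ATP synthase, reached 663 per kilobase, and Ndufs1 had 36.8. Within complex I the lowest values were those of Ndufs1 and Ndufab1, the mitochondrial acyl carrier protein, at 40.9, and the highest those of the accessory subunits Ndufa6 at 208 and Ndufa1 at 194. Cycs, the mobile electron carrier, stood at 52.9. These levels depend on the annotated transcript used, and several short-transcript genes have alternative ends.

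**Figure D3:**
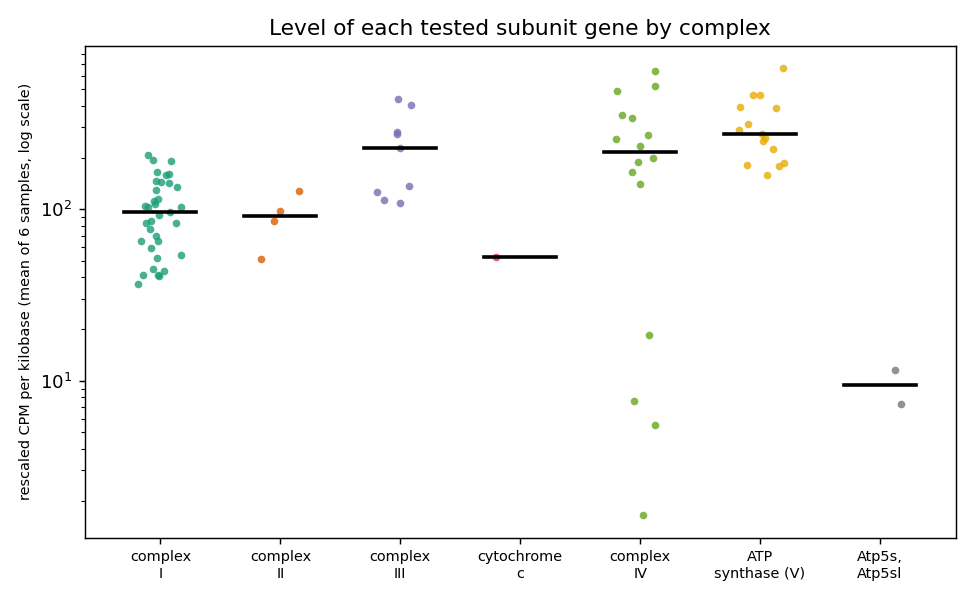
Each point is a tested subunit gene, grouped by complex on the horizontal axis, and the vertical axis is the mean rescaled CPM per kilobase over 6 samples on a log scale; black lines are medians. The ATP synthase genes lie between 158 and 663, the complex I genes between 36.8 and 208, and 4 complex IV genes lie below 20.

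Next, castrated samples were compared with intact samples, which asks whether androgen loss alters RNA for the respiratory chain in this model. No subunit gene passed the threshold in the limma fit. In limma with Benjamini-Hochberg adjustment over all tested genes, 0 of 82 members had an adjusted p under 0.05, against 1.97% of all tested genes, and 2 had an unadjusted p under 0.05, against 15.9%. edgeR on recovered reads called 0 members (1.46% of all genes). DESeq2 called 2, Cox8b and Ndufc2 (9.3% of all genes), and limma with array weights called the same 2 (6.86% of all genes). Cox8b had passed the expression filter only through castrated samples. The median log2 difference was 0.03 over the members and 0.00 over all tested genes, and 45 of 82 lay above 0, against 50.1% of all genes. The 95% interval of the difference included 0 for 80 members and lay within 1 log2 unit of 0 on either side for 78; its median half-width was 0.43. Changes smaller than that were therefore not resolvable for a typical member.

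The number of members above 0 depended on which castrated samples were counted, and moved both ways. Without castrated sample 4, 75 of 82 members had a higher mean log2 value in castrated than in intact samples (50.9% of all genes), and the median difference was 0.13, against 0.01 over all genes. Without castrated sample 1 the count was 25 of 82 (49.5% of all genes) with a median of -0.05, and without castrated sample 2 it was 30 of 81 (49.9%) with a median of -0.03. Without castrated sample 3 it was 44 of 81 (50% of all genes) with a median of 0.02. With castrated sample 4 left out, all remaining castrated samples lay above both intact samples in 36 members, against 22.1% of all genes, and below them in 2, Ndufc2 and Cox4i1, against 21.4%. With all 6 samples the corresponding counts were 2, Ndufs1 and Cox8b (13.4% of all genes), and 2, again Ndufc2 and Cox4i1 (13.2%). At an unadjusted p under 0.05 without castrated sample 4, 13 members were higher (11.7% of all genes) and 1 was lower (13.0%). After adjustment in limma only Cox8b passed, against 7.63% of all genes. In this count and in that of groups that do not overlap, Cox8b was present only because castrated samples took it past the filter.

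**Figure D4:**
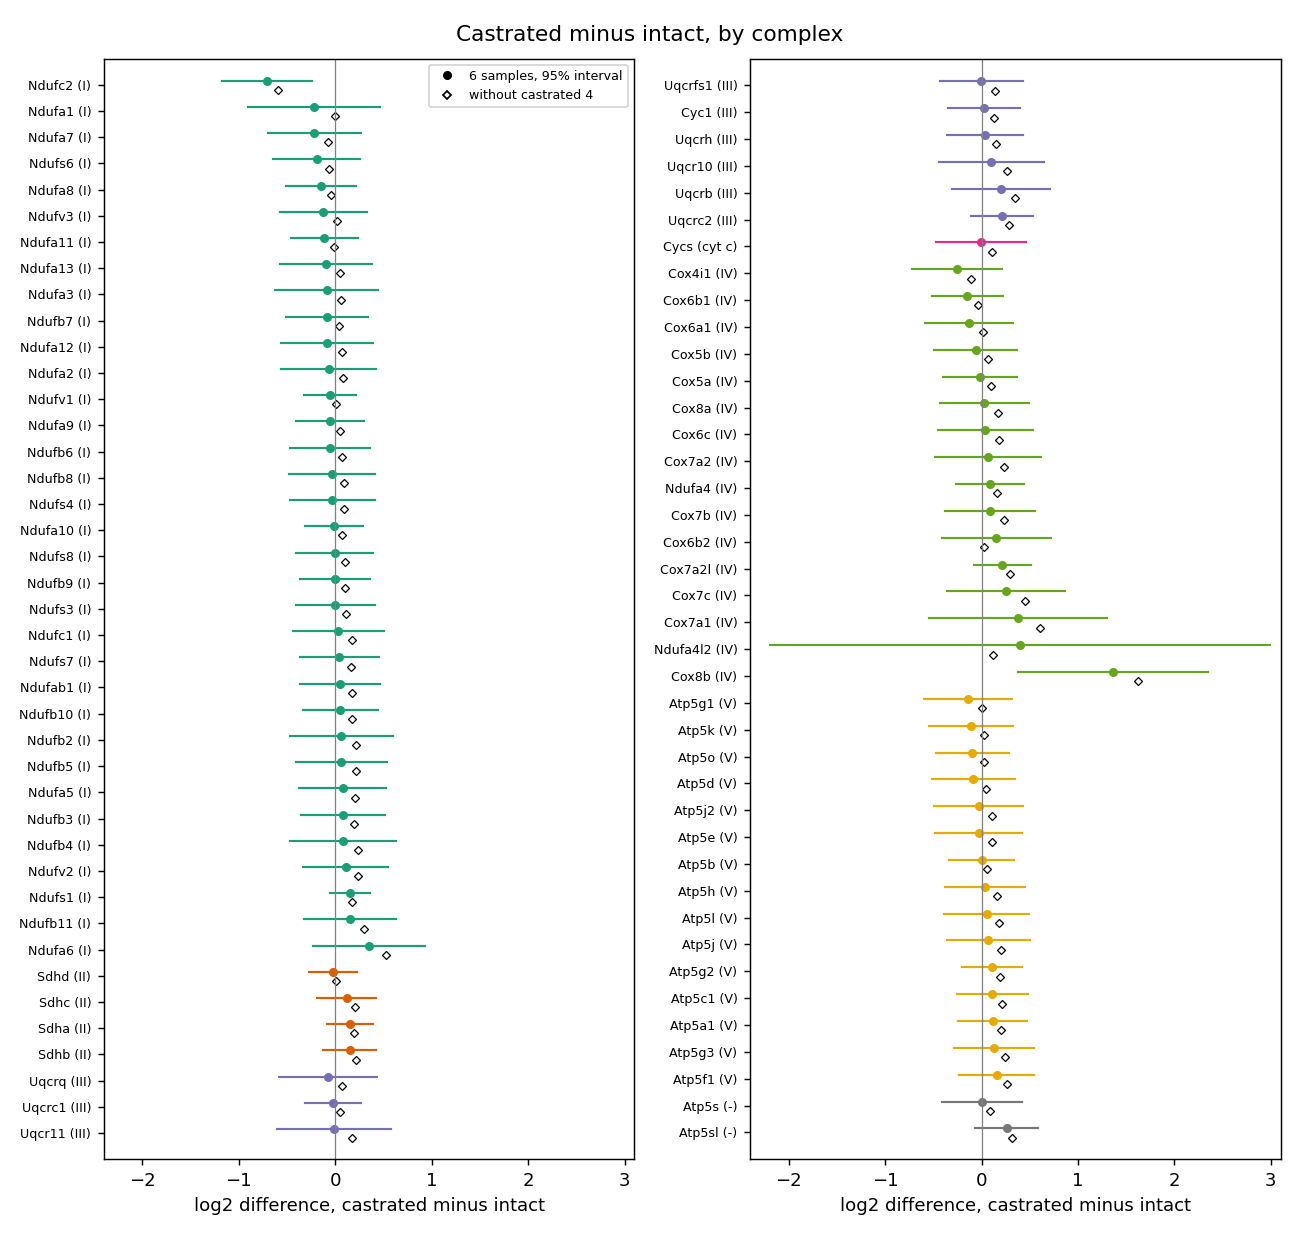
The horizontal axis is the log2 difference, castrated minus intact, and each row is a tested subunit gene, ordered by complex; 1 of the 82 is not drawn. Filled points with lines are estimates and 95% intervals from 4 castrated and 2 intact samples, and open diamonds are estimates without castrated sample 4, which for most genes lie further to the right; only the intervals of Ndufc2 and Cox8b exclude 0.

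In complex I, 15 of 35 tested members lay above 0 and 20 below, with a median log2 difference of -0.01. Ndufc2, an accessory subunit of the membrane arm (chromosome 7, 97400003 to 97407802, plus strand, GRCm38), had 102, 81.9, 77.0 and 62.4 rescaled CPM in castrated samples 1 to 4, against 142 and 120 in the intact samples. Every castrated sample lay below both intact samples. The means were 80.9 ± 16.5 (SD, n = 4) in castrated and 131 ± 15.8 (SD, n = 2) in intact samples, a log2 difference of -0.71 with a standard error of 0.20 that did not pass the threshold in limma (adjusted p = 0.138; unadjusted p = 0.00941) or edgeR (adjusted p = 0.142). DESeq2 gave an adjusted p of 0.0246. Leaving out any 1 sample gave a log2 difference between -0.83 and -0.59.

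At the other end of complex I, no member passed the threshold either. Ndufa6, an accessory subunit that carries the acyl carrier protein, had 171, 141, 132 and 89.2 rescaled CPM in castrated samples, against 105 and 98.4 in intact samples. Castrated samples 1 to 3 lay above both intact samples and castrated sample 4 below both, and the log2 difference was 0.35 with a 95% interval of -0.23 to 0.93 (limma adjusted p = 0.563). Without castrated sample 4 it was 0.53, with an unadjusted p of 0.00548 in limma and an adjusted p of 0.060. Ndufs1 had 102, 102, 96.9 and 93.7 in castrated samples, against 91.7 and 85.6 in intact samples. Its groups did not overlap, and its log2 difference of 0.15 had an interval of -0.05 to 0.36 (limma adjusted p = 0.465).

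Core subunits of complex I had log2 differences whose intervals included 0. Ndufv1, which binds FMN and NADH, averaged 107 ± 10.04 rescaled CPM in castrated and 111 ± 2.85 in intact samples (SD, n = 4 and n = 2), with an interval of -0.32 to 0.21 on the log2 scale. Ndufs7 and Ndufs8, which hold iron-sulphur clusters on the path to coenzyme Q, had log2 differences of 0.04 and -0.01. Ndufa1, which was among the 10 members with the largest differences, had -0.22 with all samples and 0.00 without castrated sample 4. Ndufs5, an iron-sulphur protein fraction subunit, was listed at 0 in all 6 samples; it is known as a widely expressed gene and shares near-identical sequence with BC002163, so the listed 0 does not show that it was not expressed.

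The 4 genes of complex II, the succinate dehydrogenase that also serves the citrate cycle, had the smallest median displacement of castrated sample 4 among the complexes and the narrowest median interval, 0.26 on either side. Their transcripts have 1142 to 3171 bases, against a member median of 752, and the part of length in this was not tested. Sdha, the flavoprotein that oxidises succinate, had 308, 289, 308 and 267 rescaled CPM in castrated samples, against 260 and 267 in intact samples. Castrated samples 1 to 3 lay above both intact samples, while castrated sample 4 lay between them. Its log2 difference was 0.15 with an interval of -0.09 to 0.39, and that of Sdhb, the iron-sulphur subunit, was 0.15 with an interval of -0.12 to 0.42. The membrane anchors Sdhc and Sdhd had differences of 0.12 and -0.03. None of these passed in limma (adjusted p between 0.546 for Sdha and 0.946 for Sdhd).

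In complex III, 5 of 9 members lay above 0, with a median of 0.03. Uqcrc1, a core protein of the matrix side, had a difference of -0.02 with an interval of -0.31 to 0.27, and Cyc1, the haem protein that hands electrons to cytochrome c, had 0.03 with an interval of -0.35 to 0.40. Uqcrfs1 differed by 0.00 with all samples, and by 0.13 without castrated sample 4. Uqcrh, the hinge protein, and Uqcr10, a small accessory subunit, were the most abundant complex III members per kilobase, at 437 and 403, with differences of 0.03 and 0.10. Cycs had 183, 181, 165 and 129 rescaled CPM in castrated samples, against 194 and 138 in intact samples. Castrated sample 4 was the lowest and the other castrated samples lay between the intact ones, and the difference was 0.00 with an interval of -0.47 to 0.46.

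Complex IV held the members that varied most. Several of its subunits have tissue-restricted isoforms beside ubiquitous ones. Of the restricted isoforms, Cox4i2, the lung and hypoxia isoform of subunit IV, had 85 reads in castrated and 48 in intact samples, and Cox6a2, the heart and skeletal muscle isoform of subunit VIa, had 67 and 29; neither was tested. Cox7b2 had 1 and 0 reads and Cox8c 0 and 0; both are best known from testis. Cox6b2, another testis isoform, had 4.51, 3.79, 3.41 and 5.80 rescaled CPM in castrated samples, against 3.91 and 3.71 in intact samples. Castrated sample 4 was highest in Cox6b2, the reverse of most members.

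Cox8b, the heart and skeletal muscle isoform of subunit VIII (chromosome 7, 140898945 to 140900446, minus strand, GRCm38), was present in castrated samples and nearly absent from intact samples. It had 0.856, 1.04, 1.37 and 0.258 rescaled CPM in castrated samples 1 to 4, against 0 and 0.0175 in intact samples. All castrated samples lay above both intact samples, and 0 reads in intact sample 1 allows up to 0.0687 CPM. There were 197 reads in castrated and 1 in intact samples, a ratio per library size of 89.7 with an exact 95% interval of 15.9 to 3559, which covers counting error only. It differed by 1.37 on the log2 scale with a standard error of 0.41 (limma adjusted p = 0.169; unadjusted p = 0.0138), a size set largely by the pseudocount of 0.5: Cox8b differed by 3.01 with a pseudocount of 0.1 and by 0.51 with one of 2. edgeR gave an adjusted p of 0.0701 and DESeq2 one of 0.00214. Without castrated sample 4 the limma adjusted p was 0.0300 with a log2 difference of 1.62. Cox8b reached 1 CPM only in castrated samples 2 and 3, so it entered the test only through the group where it was higher. Its p-values from limma, edgeR and DESeq2 carry that selection and are a description. The ubiquitous Cox8a had 426, 385, 358 and 263 rescaled CPM in castrated samples and 351 and 339 in intact samples, so Cox8b made up between 0.0983% (exact 95% interval 0.0562 to 0.160) and 0.381% (0.302 to 0.476) of the reads of the pair in castrated samples, against 0% (up to 0.0246) and 0.00515% (up to 0.0287) in intact samples.

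Marker genes of other cells were set beside Cox8b. The summed level of 5 genes of Foxi1-expressing, acid-secreting cells was 100, 133, 157 and 34.8 rescaled CPM in castrated samples 1 to 4. In intact samples it was 2.55 and 15.3. Of the 5 genes, 3 were called higher in limma, against 1.97% of all tested genes called in either direction. The sum of 7 adipocyte markers was 44.0, 21.2, 86.5 and 7.28 in castrated samples and 6.74 and 12.2 in intact samples, and 6 of the 7, among them Adipoq, were at 0 in intact sample 1. Fabp4, one of the 7, was at 34.6 and 9.89 in castrated samples 1 and 2. In the same samples Adipoq was at 1.03 and 1.27, Cfd at 7.25 and 8.71, and Retn at 0.437 and 0.431. The adipocyte sum in castrated sample 4 lay below that in intact sample 2. Skeletal muscle markers summed to 30.05, 4.04, 3.85 and 3.99 in castrated samples and 3.58 and 5.88 in intact samples. The sum of 5 brown adipocyte markers was 2.396, 3.82, 3.06 and 3.73 in castrated samples and 2.29 and 3.53 in intact samples. Among these, Ppara averaged 2.95 in castrated and 2.22 in intact samples, Cidea 0.262 and 0.648, and Cpt1b 0.0278 and 0.0439. Elovl3 was at 0 in all samples and Ucp1 had 1 read in each of 2 castrated samples and 0 elsewhere. Heart muscle markers summed to between 4.698 and 10.07 in castrated samples and to 8.54 and 6.35 in intact samples. The groups overlapped in both sums. The part of these cells in the Cox8b values was not tested.

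**Figure D5:**
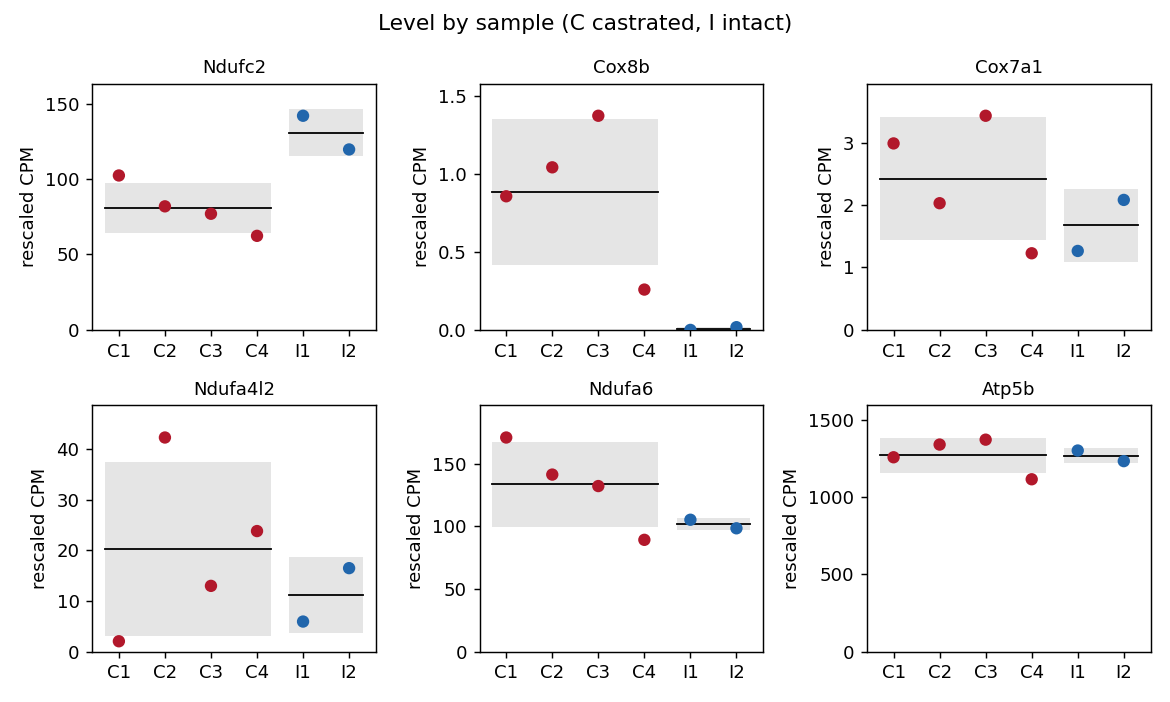
Points are rescaled CPM per sample (castrated 1 to 4 in red, intact 1 and 2 in blue), with the group mean as a line and 1 SD on either side shaded, for 6 subunit genes. Ndufc2 is lower and Cox8b higher in every castrated sample than in both intact samples; the groups overlap in the other 4 genes.

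No isoform pair, Cox8b and Cox8a included, could be called in this design, whatever its values. With 4 and 2 samples, the exact permutation test of a log2 ratio over 15 splits cannot give a two-sided p below 0.133, and 8 pairs were compared. Cox8b over Cox8a differed by 1.34 (exact permutation p = 0.133, adjusted p = 0.533), a value that was 2.98 with a pseudocount of 0.1 and 0.48 with one of 2. Cox7a1, the heart and muscle isoform of subunit VIIa, had 2.99, 2.03, 3.43 and 1.23 rescaled CPM in castrated samples, against 1.26 and 2.08 in intact samples, and the groups overlapped. Its ratio to Cox7a2 differed by 0.32 (exact permutation p = 0.533), and by -0.039 without intact sample 1 and 0.67 without intact sample 2. Ndufa4l2, which is known to be induced by hypoxia and can take the place of Ndufa4, had 2.05, 42.3, 13.0 and 23.8 in castrated samples, against 5.95 and 16.5 in intact samples. The lowest and the highest value were both in castrated samples, and the interval of the log2 difference, -2.20 to 2.99, was the widest of all members. Pericytes are a known site of Ndufa4l2 expression; the sum of 7 pericyte markers was 94.95, 144, 110 and 230 rescaled CPM in castrated and 134 and 151 in intact samples, and its part in the Ndufa4l2 values was not tested.

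Among ubiquitous complex IV subunits, Cox4i1, the main isoform of subunit IV, had 391, 371, 361 and 248 rescaled CPM in castrated samples, against 403 and 404 in intact samples. Every castrated sample lay below both intact samples, and the log2 difference was -0.26, its interval running from -0.72 to 0.21 (limma adjusted p = 0.598), and -0.11 without castrated sample 4. Antisense exons of Emc8 cover 9.94% of its exon bases. Cox5a and Cox5b, subunits of the matrix side, had differences of -0.02 and -0.06. Cox7a2l, which helps to join complexes III and IV into a supercomplex, had 308, 315, 286 and 245 in castrated samples, against 246 and 248 in intact samples. Castrated samples 1 to 3 lay above both intact samples, and the difference was 0.22, its interval running from -0.08 to 0.51 (limma adjusted p = 0.471). Cox7c differed by 0.25 with an interval of -0.35 to 0.86, but shares near-identical sequence with Gm10012, so its reads are uncertain.

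The promoters of the pair that parted most, Cox8a and Cox8b, are shown with those of Cox6a1, which is a ubiquitous complex IV subunit, and of Ndufc2. Each is the window from 250 bases before to 30 after the annotated start, from RefSeq (GRCm38.p6), written 5′ to 3′ on the gene's strand. Capitals mark matches on either strand to the letters CCGGAAG (ETS family, which includes the factor GABPA), GCGC and TGCGC separated by any 1 base (NRF1), AAGATGGC (YY1) and TATAAA; matches of different motifs may overlap. The windows are chr5:115348929-115349208 (minus strand) for Cox6a1, chr19:7217587-7217866 (minus strand) for Cox8a, chr7:140900417-140900696 (minus strand) for Cox8b and chr7:97399753-97400032 (plus strand) for Ndufc2.
Cox6a1: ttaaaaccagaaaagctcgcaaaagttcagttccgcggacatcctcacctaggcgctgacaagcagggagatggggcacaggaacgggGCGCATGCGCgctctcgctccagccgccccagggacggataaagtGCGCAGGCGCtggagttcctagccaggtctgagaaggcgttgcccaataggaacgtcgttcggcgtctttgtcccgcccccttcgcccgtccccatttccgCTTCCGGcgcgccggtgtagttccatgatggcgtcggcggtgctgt
Cox8a: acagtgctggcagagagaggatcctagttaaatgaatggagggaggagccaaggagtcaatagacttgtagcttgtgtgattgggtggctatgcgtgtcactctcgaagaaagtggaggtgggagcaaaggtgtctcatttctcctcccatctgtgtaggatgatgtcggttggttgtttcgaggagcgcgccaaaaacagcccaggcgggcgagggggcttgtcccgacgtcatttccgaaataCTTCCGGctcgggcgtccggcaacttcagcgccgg
Cox8b: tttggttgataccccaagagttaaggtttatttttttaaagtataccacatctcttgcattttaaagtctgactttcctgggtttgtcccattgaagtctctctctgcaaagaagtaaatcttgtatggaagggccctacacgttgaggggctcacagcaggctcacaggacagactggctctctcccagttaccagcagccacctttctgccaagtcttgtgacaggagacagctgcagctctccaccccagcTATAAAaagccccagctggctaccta
Ndufc2: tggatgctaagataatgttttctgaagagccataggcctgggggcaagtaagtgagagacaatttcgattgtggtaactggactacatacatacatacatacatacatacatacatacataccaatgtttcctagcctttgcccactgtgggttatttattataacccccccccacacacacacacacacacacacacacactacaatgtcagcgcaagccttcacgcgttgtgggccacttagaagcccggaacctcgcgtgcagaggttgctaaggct

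Cox6a1 held 1 ETS and 2 NRF1 matches and Cox8a 1 ETS match. Cox8b held none of these and 1 TATAAA, which begins 4 bases after the annotated start and not before it. Ndufc2 held no match to any of the 4. Of the 69 members found in the promoter table, 15 held the ETS letters (21.7%, against 8.70% of all 27025 promoters), 15 the NRF1 letters (21.7%, against 4.57%), 2 the YY1 letters (2.90%, against 2.38%) and 7 TATAAA (10.1%, against 13.7%). At least 1 of the first 3 motifs occurred in 28 members (40.6%), against 14.3% of all promoters. Among ubiquitous complex IV genes whose windows are not shown, Cox6b1 held 1 ETS match. Cox5a, Cox5b, Cox7a2l and Cox7c held no match to any of the 4. These matches describe the letters in the windows and were not related to the RNA values.

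ATP synthase showed no member near the threshold. Its 15 genes had log2 differences between -0.14 and 0.16, with 9 above 0 and a median of 0.04. Atp5b had 1257, 1340, 1371 and 1115 rescaled CPM in castrated samples, against 1301 and 1232 in intact samples. The groups overlapped, and the difference was 0.00 with an interval of -0.34 to 0.34. Atp5a1, the alpha subunit, averaged 999 ± 119 in castrated and 917 ± 1.45 in intact samples (SD, n = 4 and n = 2), a log2 difference of 0.11 (95% interval -0.25 to 0.47). Atp5f1, a stalk subunit, and Atp5j2, a small membrane subunit, had differences of 0.16 and -0.03.

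The 3 genes Atp5g1, Atp5g2 and Atp5g3 encode the same mature c subunit of the rotor ring. Atp5g3 and Atp5g2 were at 462 rescaled CPM per kilobase each, and Atp5g1 was at 186. The log2 ratio of Atp5g1 to Atp5g2 was -0.66, -0.74, -0.69 and -0.94 in castrated samples 1 to 4, against -0.46 and -0.56 in the intact samples. It was lower in each castrated sample than in both intact samples, by 0.25 on average (a difference of -0.25, exact permutation p = 0.133, the smallest this design allows, and adjusted p = 0.533 over the 8 pairs). The ratio of Atp5g3 to Atp5g2 differed by 0.02. Near-identical copies elsewhere in the genome, 1 for Atp5g1 and 2 for Atp5g2, make the reads of both uncertain. Of the remaining members, Atp5sl differed by 0.26 with an interval of -0.07 to 0.59 and Atp5s by 0.00.

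Genes that build, supply or regulate the chain were listed beside the subunits. Lists of assembly factors for complex I (14 tested), complexes II and III (10), complex IV (20) and ATP synthase (4), of coenzyme Q synthesis (10), carriers and uncouplers (7), regulators of mitochondrial genes (12) and mitochondrial dynamics (11) held 0 genes called in limma, against 1.97% of all tested genes, a share at which lists of these sizes would hold few or none. At an unadjusted p under 0.05, which 15.9% of all tested genes reached, there was only Ttc19, which acts in complex III assembly, at 17.2 ± 0.421 rescaled CPM in castrated and 13.6 ± 0.438 in intact samples (SD, n = 4 and n = 2; log2 difference 0.32, limma adjusted p = 0.221). The medians of these lists lay between 0.00 and 0.09. Esrrg, a nuclear receptor that regulates mitochondrial genes, had 64.8, 70.6, 80.7 and 40.1 in castrated samples, against 44.4 and 34.9 in intact samples (limma adjusted p = 0.325, and 0.0258 without castrated sample 4). Castrated sample 4 was the lowest of the 6 in 26.5% of all tested genes. It was lowest in 11 of the 14 complex I assembly factors, 4 of 10 for complexes II and III, 13 of 20 for complex IV and 2 of 4 for ATP synthase. The counts were 7 of 10 for coenzyme Q synthesis, 6 of 7 for carriers and uncouplers, 7 of 11 for mitochondrial dynamics and 2 of 12 for regulators. These lists are short, and differences between them were not tested.

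Cell type markers varied over the same samples as the members. The luminal epithelial markers Krt8, Krt18, Epcam, Cdh1 and Cd24a summed to 7910, 6515, 7145 and 5783 rescaled CPM in castrated samples, against 7460 and 7209 in intact samples, and marked the tissue as epithelial. Prostate lineage genes, 3 of 6 of which were called lower in limma, summed to 765, 693, 743 and 508 in castrated samples, against 1123 and 1217 in intact samples, and Msmb was at 0 in every castrated sample. The luminal sum was lowest in castrated sample 4, and the pericyte sum was highest there. Leukocyte markers summed to 249, 251, 315 and 307 in castrated samples, against 166 and 101 in intact samples, and 2 of 6, S100a8 and S100a9, were called higher in limma. Ptprc, which all leukocytes express, was at 88.9 in castrated sample 4 and at 46.8 to 50.7 in the other castrated samples. Intact samples had 69.7 and 43.3. Cd3e (4.50) and Cd68 (57.3) were also highest in castrated sample 4 among castrated samples. Cd79a (2.63) and S100a8 (53.39) were lowest there among castrated samples, and S100a9 (101) lay below castrated sample 3 (125). Basal epithelial markers summed to 596, 3452, 759 and 2578 in castrated samples, against 3316 and 3723 in intact samples. Of these 5 genes 1, Lamb3, was called lower, at a mean of 43.5 in castrated and 103 in intact samples (limma adjusted p = 0.00813). Smooth muscle markers summed to between 330 and 525 in castrated samples and to 264 and 268 in intact samples. The part of these differences in cell makeup in the subunit values was not tested.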

How the data were processed

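RNA sequencing of 4 castrated and 2 intact prostate samples was used. The authors deposited 1 table of CPM per sample (24421 gene symbols), each summing to 1000000 with no further scaling between samples. The submitters' processing notes name TopHat2, HTSeq, edgeR and mm10; their settings, the use of strand and further filters are not given in the sources used here. All values (100%, within a tolerance of 1e-06) were whole multiples of 1 read, so reads were recovered; a count of 0 allows 3 reads, 0.0507 to 0.0687 CPM per sample, for counting error only.

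Rescaling of CPM used size factors from the median of ratios. limma 3.58.1 (R 4.3.3, mean-variance trend) was fitted to log2(rescaled CPM + 0.5), castrated minus intact, over the 13898 genes with at least 1 CPM in at least 2 samples, with two-sided p-values adjusted by the Benjamini-Hochberg method and a threshold of 0.05. This scale understates changes of weakly expressed genes. Isoform log2 ratios were compared by exact two-sided permutation tests. edgeR 4.0.16 and DESeq2 1.42.0 were run on recovered reads as alternatives, beside other pseudocounts (0.1 and 2), filters, scalings, moderation, array weights, a replicate block and each sample left out. The fits were tested on simulated counts.

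Lengths are those of the protein-coding transcript of median length among the best-ranked APPRIS principal transcripts in GENCODE's annotation of GRCm38, the assembly mm10 names. Symbols gave a unique gene for all members except Atp5o, with Atp5sl matched as Dmac2. Antisense exons cover over 10% of the exon bases of 9 members and same-strand exons of 1, where reads cannot be assigned without strand. Named members are those called by any tool or at an unadjusted p under 0.05, the 10 largest differences, core subunits, isoform pairs, the extremes per kilobase of each complex and untested members. The members, lists and rule were chosen with earlier results of these data known. Some genes that the rule selects are not reported here.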

Additional observations from a re-analysis of the deposited data

Results flagged for a closer look

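Among 53 named subunit levels and shares examined in the 4 castrated samples, 3 held a sample far from the others, in each case castrated sample 4 at the low end: the gap to the nearest other sample made up 0.836 of the range for Atp5a1 (822 to 1076 rescaled CPM), 0.862 for Cox6b1 (165 to 232) and 0.905 for Uqcrfs1 (110 to 165), above Dixon's 95% critical value for 4 samples. Chance flags about 1 in 20 groups, and the same criterion was met by 5.74% of all tested genes, with castrated sample 4 as the extreme in 3.40%.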

How the results depend on the processing

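The count of members called was 0 in limma under every other pseudocount, filter, scaling and moderation setting tried and with the replicate block, was 2 with array weights and with DESeq2 (Cox8b and Ndufc2 in both), and ranged from 0 to 1 with each sample left out. The count over all genes was 274; it was 170 with no filter, 954 with array weights, 417 with the replicate block and 1293 with DESeq2, and ranged from 1 to 1052 with each sample left out, 1052 being that without castrated sample 4. The member median of 0.03 ranged from -0.05 to 0.13 with each sample left out, was 0.18 with the replicate block and 0.07 on values as deposited, where the median of all genes was 0.05. Same-numbered samples had correlated deviations of 0.0754 and 0.226 in 2 pairs, which does not show that the numbers pair the samples. The isoform difference of Cox8b over Cox8a was 2.98 with a pseudocount of 0.1 and 0.48 with one of 2; leaving out samples gave -0.039 to 0.67 for Cox7a1 over Cox7a2 and -0.10 to 0.13 for Atp5g3 over Atp5g2. The causes were not tested. With 1 intact sample left out, the other is assumed to vary like the castrated ones. Cox8b was too low to be tested without castrated sample 2 or 3. Of 709 comparisons of 42 named members over 17 alternatives, 72 changed sign, all in values not called, 17 moved by over 1 standard error and 5 changed a call. With 2 intact samples, the log2 interval of a typical member spans 0.43 on either side.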
